A study of Ovis aries with 12 samples.

Results

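Cytosolic ribosomal proteins are the protein subunits of the ribosomes that translate nuclear messages in the cytoplasm. Genes were taken from the array's gene symbols: RPL or RPS followed by a digit, with RPSA, RPLP0, RPLP1 and RPLP2 added and the RPS6K kinases left out. This gave 69 genes of 9155 with a symbol of their own, 43 named for the large subunit and 26 for the small subunit. They lay on 98 probe sets, 19 genes had several, and each gene was followed by its brightest probe set. The rule used names and brightness, not differences between lambs. It also took in RPS19BP1, which encodes a protein that binds RPS19 and is not a subunit, and RPL15P, whose symbol has the form of a pseudogene. RPS4Y1 carries the symbol of a human Y-linked gene, and whether its probe set reads a subunit gene of sheep was not checked. RPLP1, RPS4X, RPL10L, RPL22L1, RPL39L and RPL36AL were not analysed here.

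RNA came from longissimus dorsi, a large muscle that runs along the spine, in 12 lambs. The callipyge lambs carried 1 copy of the callipyge allele (genotype +/CLPG), and the normal lambs carried none. Callipyge is an inherited overgrowth of muscle in sheep that appears in the weeks after birth. Each genotype was sampled at 10, 20 and 30 days with 2 lambs in each of the 6 groups, which gives 6 lambs per genotype and 4 per age. All lambs nursed until shortly before they were killed. Each lamb gave 1 Affymetrix bovine array, so sheep RNA was read by probes designed for cattle.

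A ribosome joins a small subunit, which decodes the message, to a large subunit, which forms the peptide bond and holds the exit tunnel. Each subunit needs its proteins in fixed proportions, and their messages are among the most abundant in growing tissue. Most of them begin with a terminal oligopyrimidine tract, through which the mTORC1 kinase complex sets how well they are translated. In muscle, the building of ribosomes is part of growth, and RPL3L is a form of RPL3 found mainly in skeletal muscle and heart. These genes also have many processed pseudogenes, and a probe set may read such copies, so each value belongs to a probe set and only with that limit to a gene.

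Values are log2 of the array signal plus 16, after each array was scaled to the same trimmed mean. Differences and fold changes are on that scale. An error after ± is the standard error of limma's fit unless it is marked SD, and a gene is said to have risen or fallen where limma's adjusted p lay under 0.05. Of the 69 genes, 67 were bright enough to be tested, 42 of the large and 25 of the small subunit. RPL37 and RPS19 lay below the limit of 5.25 and are not counted further. In 60 of the 67 the mean level was 10 or more. The spread between replicate lambs was small for these genes, with a median SD of 0.13 against 0.24 over all tested probe sets. It was largest for RPS19BP1 with 0.38, RPS29 with 0.36 and RPL31 with 0.33.

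Markers of muscle fibres were bright in every lamb, with a summed signal of 62173.8 to 81190.8 over 9 genes that included ACTA1, CKM, MYH1 and MYH7. The first component of all tested probe sets, with 17.1% of the variance, ran with age. Its scores at 10 days were -12.38 and -13.11 in callipyge lambs and -22.02 and -17.05 in normal lambs, and at 20 days all 4 lay between -1.33 and 4.81. At 30 days the scores were 6.43 in replicate 1 and 15.92 in replicate 2 of callipyge lambs, and 8.77 in replicate 1 and 27.46 in replicate 2 of normal lambs. Results on 30 days are also given without both replicate 2 arrays of that age. Within callipyge 30 day lambs, 58 of the 67 genes were lower in replicate 2 than in replicate 1, by a median of 0.18. Over all tested probe sets the share lower in replicate 2 was 53.3%. Muscle is a mixture of cells, and a lower level per muscle cannot be told apart from fewer cells that express the gene.

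The first question was whether ribosomal protein messages change over the weeks in which the callipyge phenotype appears. They were lower at 30 days than at 10 days across both subunits and in both genotypes. Of the 67 genes, 24 fell and none rose between these ages, 66 lay below 0, and the median difference was -0.39, against 0.00 over all tested probe sets. Of all tested probe sets 1.83% were called, and 1.26% were called lower at 30 days. Those that fell included RPL32, RPS26, RPS7, RPL8, RPL29, RPSA, RPS15A and RPS27, by 1.51-fold to 2.20-fold.

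The mean level over the 67 genes in each lamb showed the same order. At 10 days it was 11.28 and 11.25 in callipyge lambs and 11.42 and 11.34 in normal lambs. The 20 day values were 11.20 and 11.23 in callipyge lambs and 11.23 and 11.29 in normal lambs, and the 30 day values were 10.97 and 10.79 in callipyge lambs and 10.94 and 10.92 in normal lambs. All 4 lambs at 30 days lay below every younger lamb, while lambs of 10 and 20 days overlapped. The callipyge lamb at 10.79 is replicate 2.

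**Figure D1:**
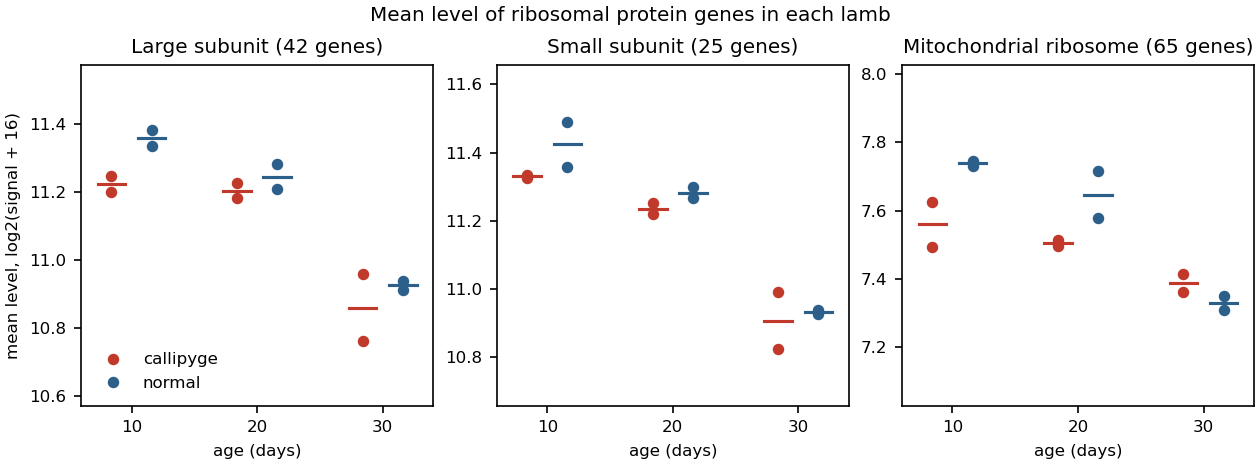
Mean log2(signal + 16) in each lamb (y axis, each panel with its own range) against age in days (x axis), for the large subunit (42 genes), the small subunit (25 genes) and the mitochondrial ribosome (65 genes). Points are lambs, red for callipyge and blue for normal, and short lines are group means. In every panel, that of the mitochondrial ribosome included, all 4 lambs at 30 days lie below all 8 younger lambs.

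RPL32, a protein of the large subunit, had the lowest difference. It was 11.15 and 11.09 in callipyge lambs and 11.60 and 11.62 in normal lambs at 10 days. At 20 days it was 11.00 and 10.42 in callipyge lambs and 10.05 and 10.24 in normal lambs, and at 30 days 10.50 and 10.23 in callipyge lambs and 10.40 and 9.78 in normal lambs. Every lamb of 20 and of 30 days lay below every lamb of 10 days. RPL32 fell by 1.14 ± 0.16 between 10 and 30 days, 2.20-fold lower at 30 days (limma, adjusted p = 0.0107). Its other tested probe sets, dimmer by far, differed by 0.05 and 0.17 in the opposite direction, and the mean over all its probe sets differed by -0.31 (adjusted p = 0.277). Over the settings tried, its adjusted p ran from 0.00501 to 0.277.

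RPS26, a small subunit protein that lies where the message leaves the ribosome, came next. The 30 day levels were 10.53 and 10.46 in callipyge lambs and 10.37 and 10.05 in normal lambs. The 10 day levels were 11.36 and 11.25 in callipyge lambs and 11.35 and 10.97 in normal lambs. The ages did not overlap, and RPS26 fell by 0.88 ± 0.12 (limma, adjusted p = 0.0111). RPS7, a small subunit protein, had 10.04 and 9.80 in callipyge lambs and 9.84 and 9.93 in normal lambs at 30 days. At 10 days RPS7 had 10.51 and 10.58 in callipyge lambs and 10.69 and 10.62 in normal lambs. All 4 older lambs were below all 4 younger ones, and RPS7 fell by 0.70 ± 0.10 (limma, adjusted p = 0.0115). Its second tested probe set differed by 0.04, and the mean over its probe sets by -0.27 (adjusted p = 0.315).

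RPL8, which lies beside the peptidyl transferase centre of the large subunit, had 11.63 and 11.44 in callipyge lambs and 11.62 and 11.40 in normal lambs at 30 days. At 10 days RPL8 had 11.999 and 12.17 in callipyge lambs and 12.14 and 12.21 in normal lambs. Again the ages did not overlap, and RPL8 fell by 0.60 ± 0.09 (limma, adjusted p = 0.0127). RPL29, a large subunit protein, stood between 9.81 and 9.95 at 30 days and between 10.49 and 10.56 at 10 days, with a fall of 0.63 ± 0.10. RPSA, a small subunit protein also known as a laminin receptor, stood between 10.99 and 11.41 at 30 days and between 11.68 and 11.93 at 10 days, and its fall was 0.65 ± 0.11. The small subunit proteins RPS27, which carries a zinc finger, and RPS15A fell by 0.62 ± 0.10 and 0.59 ± 0.10.

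The other 16 that fell were RPL10, RPL13, RPL24, RPL14, RPL9, RPL10A, RPL34, RPL12, RPL22 and RPL26 of the large subunit and RPS3, RPS2, RPS6, RPS10, RPS16 and RPS20 of the small subunit. RPL10, which joins the large subunit late in its maturation, fell by 0.50 ± 0.09, and its second bright probe set fell by 0.49 ± 0.08. RPS6, the subunit that the ribosomal S6 kinases phosphorylate, fell by 0.69 ± 0.13. RPL34 had a difference of -0.72 ± 0.15 and RPL12, which lies at the base of the stalk, -0.70 ± 0.14. RPL22, which has a paralog in RPL22L1, fell by 0.59 ± 0.13. At the threshold, RPL26 was called with an adjusted p of 0.0499 and RPS9 was not with 0.0501. With a threshold of 0.10, 36 of the 67 were lower, where 449 of all 12008 probe sets were called in either direction.

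The dimmer probe sets of these genes did not all follow. Of 21 further tested probe sets, 12 lay below 0 for 30 minus 10 days and 2 were called, those of RPL10 and RPLP0. The second probe sets of RPS3 and RPL24 differed by 0.36 ± 0.11 and 0.35 ± 0.20 where their brightest fell, and that of RPS4Y1 by 0.15 ± 0.16. The second probe sets of RPS15A (-0.23 ± 0.15) and RPL26 (-0.23 ± 0.20) had the direction of the brightest but did not pass.

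**Figure D2:**
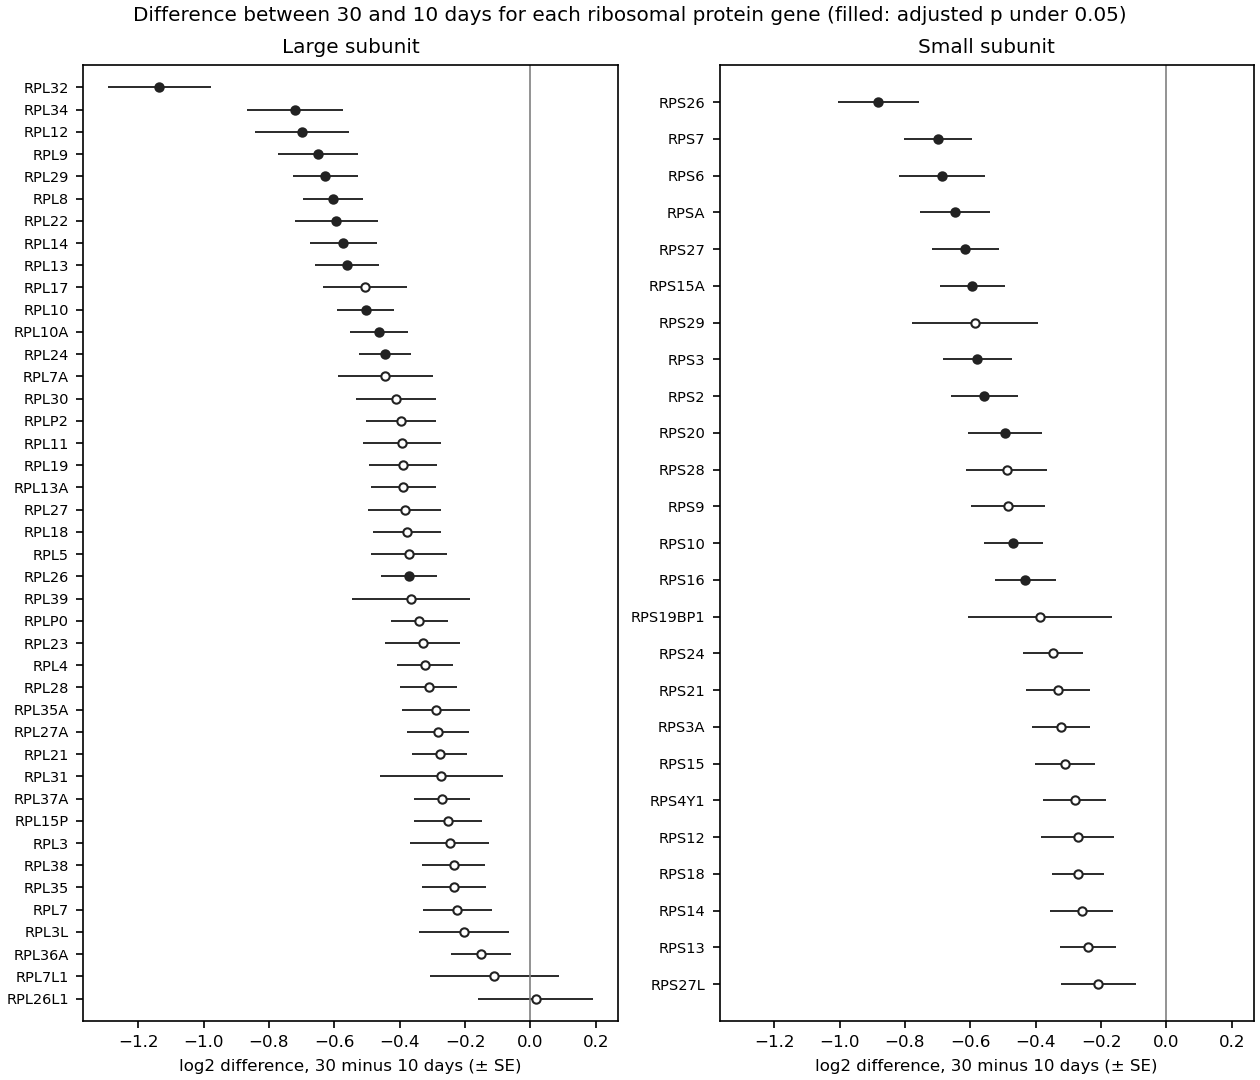
Difference in log2(signal + 16) between 30 and 10 days (x axis) for each tested gene of the large (left) and small subunit (right), ordered by size, with bars of ± SE. Filled points had a limma adjusted p under 0.05. All genes but RPL26L1 lie left of 0, and RPL32 (-1.14) and RPS26 (-0.88) lie farthest left.

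Among genes with a known special place, several did not pass the test. RPLP0, which anchors the stalk that recruits translation factors, was lower at 30 days by -0.34 ± 0.09 (adjusted p = 0.0722) on its brightest probe set, while its second probe set fell by 0.52 ± 0.10 (adjusted p = 0.0196). RPLP2, an acidic protein of that stalk, differed by -0.40 ± 0.11 (adjusted p = 0.0871). RPL5 and RPL11, which bind the 5S ribosomal RNA and, when free, the p53 regulator MDM2, differed by -0.37 ± 0.12 and -0.39 ± 0.12. RPL39, which lines the exit tunnel, differed by -0.37 ± 0.18, RPL7 by -0.22 ± 0.11, RPL36A by -0.15 ± 0.09 and RPS4Y1 by -0.28 ± 0.10.

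RPL26L1, RPL7L1, RPL3L, RPL3 and RPS27L did not pass the test. RPL26L1, the paralog of RPL26, was the only gene above 0, with 0.02 ± 0.18 (adjusted p = 0.976). RPL7L1, the paralog of RPL7, differed by -0.11 ± 0.20 at a level near the brightness limit. RPL3L differed by -0.20 ± 0.14 and its paralog RPL3 by -0.25 ± 0.12. RPS27L, a paralog of RPS27 that p53 is known to induce, differed by -0.21 ± 0.11, and its second probe set by 0.00. No difference between a paralog and its partner was tested.

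Both subunits took part. In the large subunit 13 of 42 genes fell (31%), with a median of -0.37, and in the small subunit 11 of 25 (44%), with a median of -0.47. Within callipyge lambs the median over all 67 genes between 10 and 30 days was -0.36, and within normal lambs -0.42. In each genotype 66 of the 67 lay below 0. For the large subunit these medians were -0.36 in callipyge and -0.38 in normal lambs, and for the small subunit -0.45 in callipyge and -0.54 in normal lambs. No test of the difference between subunits was made.

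Most of the difference lay between 20 and 30 days. Between 10 and 20 days the median was -0.07, 0 of 67 genes were called by limma and 4 had an unadjusted p under 0.05 (5.97%, against 8.42% of all probe sets), with 0% called over all probe sets. RPL32 had the smallest p of these, with -0.94 ± 0.16 (adjusted p = 0.124), and RPL39 the smallest among those above 0, with 0.31 ± 0.18. Between 20 and 30 days the median was -0.33, 65 of 67 lay below 0 and 57 had an unadjusted p under 0.05 (85.1%, against 8.99% of all probe sets). None passed after adjustment, as 0.00833% did of all probe sets. RPL8 had the smallest p there with -0.47 ± 0.09 (adjusted p = 0.110), and RPS19BP1 was highest with 0.35 ± 0.22.

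Groups of lambs that did not overlap show the same order. In 45 genes, 26 large and 19 small, all 4 lambs at 30 days lay below all 4 at 10 days, against 4.31% of all probe sets. In 45 genes, again 26 and 19, all 4 lambs at 30 days lay below all 4 at 20 days, against 2.73%. All 4 lambs at 20 days lay below all 4 at 10 days in 6 genes, against 2.6%, and these were RPL29, RPL32, RPL9, RPS19BP1, RPS2 and RPS7. An exact permutation test of a single gene between 2 ages, within genotype, has 36 relabelings and cannot go below 0.0556.

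The number of calls depended on single lambs, in these genes and over all tested probe sets, of which 220 were called with every lamb. Without callipyge 10 day replicate 1 the genes called were 4, where 41 of all probe sets were, and without callipyge 10 day replicate 2 they were 2, where 22 were. Without normal 10 day replicate 1 they were 2, where 18 were, and without normal 10 day replicate 2 they were 9, where 71 were. Without callipyge 30 day replicate 2 they were 8, where 63 were. With both replicate 2 arrays of 30 days left out the number was 0, where 1 of all probe sets was called, but the median was -0.35 and 64 of 67 genes still lay below 0. RPL32, RPS26, RPS7 and RPL8 each had an adjusted p of 0.0668 there. The lowest and highest medians with a lamb left out were -0.43 and -0.35.

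The size of the difference also depended on array scaling. The trimmed mean before scaling was 87.5 ± 12.8 at 30 days and 71.0 ± 10.3 at 10 days (SD, n = 4). Without scaling, the median of all probe sets was 0.24 between these ages, that of the ribosomal protein genes was -0.09, and 20 of the 67 lay above 0. Relative to all probe sets the genes were then lower by a median of -0.33, against -0.39 with scaling. Quantile normalization gave a median of -0.22 with 67 of 67 below 0 and 8 calls.

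Bright probe sets were also lower as a class. Of the 569 other probe sets with a mean of 10 or more, 56 were called lower at 30 days (9.84%), against 35.8% of the ribosomal protein genes, and their median was -0.09. When arrays were centred on these other bright probe sets, the median of the ribosomal protein genes was -0.28, against 0.11 over all tested probe sets. Of the 67 genes, 66 lay below 0 there. The part of brightness in the result was not tested further. The 3' to 5' difference of the GAPDH control, a sign of RNA quality, was 0.30 ± 0.04 at 30 days and 0.31 ± 0.04 at 10 days (SD, n = 4).

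No marker gene of muscle fibres or of other cell types was called for age. Of 3 tested proliferation markers, MCM3, MCM5 and PCNA, all were below 0 at 30 days. CDK1, CCNB1, CCNA2, RRM2 and TYMS were too dim to test. Summed signals over all 8, dim ones included, were 277.1 to 459 at 30 days and 434.8 to 566.6 at 10 days. Of 4 tested immune markers, CD14, CD3E, CD68 and CSF1R, all were above 0. PTPRC, CD3D, CD4, FCER1G and TYROBP were too dim. Sums over all 9, dim ones included, were 240 to 296.5 at 30 days and 174.4 to 219.6 at 10 days. Of 7 tested endothelial and smooth muscle markers, which included PECAM1, CDH5 and ACTA2, all were above 0 with a median of 0.13. KDR was too dim to test. Sums over all 8, KDR included, ran from 2813.7 to 5172.7 at 30 days and from 3044.1 to 3914.6 at 10 days, which overlap. The 9 muscle fibre markers had a median of -0.15, with 8 below 0 and 1 above. Their part in the result was not tested.

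**Figure D3:**
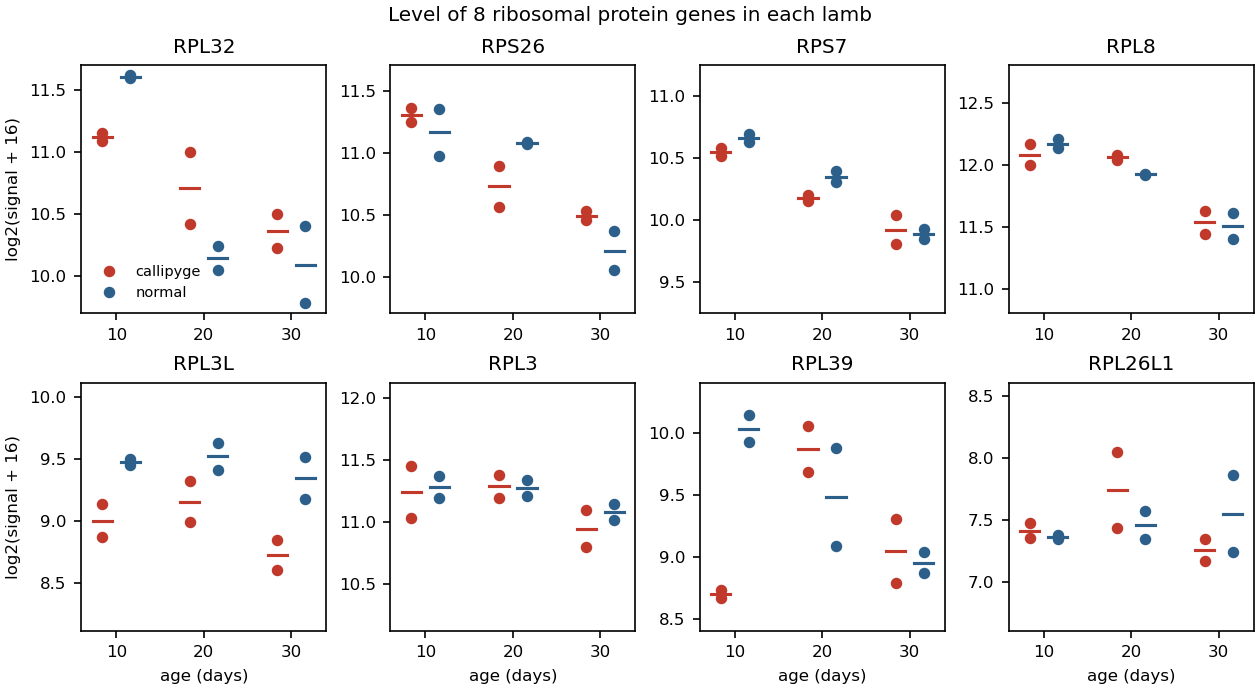
Level in each lamb, as log2(signal + 16) (y axis, each panel with its own range), of 8 ribosomal protein genes against age in days (x axis). Points are lambs, red for callipyge and blue for normal, and short lines are group means. RPL32, RPS26, RPS7 and RPL8 are lower in every 30 day lamb than in every 10 day lamb, and RPL3L is lower in both callipyge lambs than in both normal lambs at each age.

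The second question was whether callipyge muscle differed from normal muscle in these genes. Averaged over the 3 ages, limma called 0 of the 67 genes, against 0.883% of all probe sets, and 8 had an unadjusted p under 0.05, which is 11.9% of them against 11.8% of all probe sets. The median difference was -0.09, against -0.01 over all probe sets, with 18 genes above 0 and 49 below. For the large subunit the median was -0.09 with 10 of 42 above 0, and for the small subunit -0.06 with 8 of 25 above 0. RPL3L came nearest to the threshold.

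RPL3L, the striated muscle form of RPL3, was 9.14 and 8.87 in callipyge lambs and 9.50 and 9.45 in normal lambs at 10 days. It was 8.99 and 9.33 in callipyge lambs and 9.42 and 9.63 in normal lambs at 20 days, and 8.85 and 8.61 in callipyge lambs and 9.52 and 9.18 in normal lambs at 30 days. At each age both callipyge lambs lay below both normal lambs. The difference was -0.49 ± 0.11, or 1.40-fold lower in callipyge lambs (limma, adjusted p = 0.0743). Over the settings tried that p ran from 0.0561 to 0.217, and RPL3L was called only with the threshold at 0.10. Without both replicate 2 arrays of 30 days RPL3L differed by -0.50 (adjusted p = 0.131), and the median over the 67 genes was -0.03 with 0 called. RPL3 itself differed by -0.05 ± 0.10, with callipyge lambs between 10.80 and 11.45 and normal lambs between 11.02 and 11.37.

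RPS28, a small subunit protein near the message's exit, and RPL36A, a large subunit protein that contacts transfer RNA, shared that pattern. In callipyge lambs RPS28 ran from 7.38 over a median of 7.55 to 7.82, and in normal lambs from 7.51 over 7.92 to 8.20. RPL36A ran from 10.75 over 10.87 to 10.96 in callipyge lambs and from 10.95 over 11.09 to 11.16 in normal lambs. The ranges over all ages overlap, but at each age both callipyge lambs were lower in both genes. The differences were -0.30 ± 0.10 for RPS28 (adjusted p = 0.244) and -0.20 ± 0.07 for RPL36A (adjusted p = 0.307). RPL3L, RPS28 and RPL36A were the only 3 of the 67 genes with both callipyge lambs below both normal lambs at every age, against 1.47% of all probe sets. None had both above at every age.

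RPS14, a small subunit protein, followed with -0.20 ± 0.08 (adjusted p = 0.335). On the other side RPL27 differed by 0.13 ± 0.09, RPS9 by 0.11 ± 0.09, RPS6 by 0.11 ± 0.11 and RPSA by 0.09 ± 0.09, all far from the threshold. Without array scaling these 4 lay below 0, and the median of all probe sets was -0.19. The trimmed mean before scaling was 73.2 ± 12.4 in callipyge lambs and 85.1 ± 12.2 in normal lambs (SD, n = 6). Stalk proteins RPLP0 and RPLP2 differed by -0.03 ± 0.07 and -0.20 ± 0.09. Of the tested red cell markers HBA, HBB and CA2 none was called. With ALAS2 and SLC4A1, too dim to test, the summed signal was 133.3 to 235.8 in callipyge lambs and 184.7 to 308.8 in normal lambs. The part of red cells in these differences was not tested.

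At single ages no member was called either. At 10 days the median difference was -0.09, with 0 of 67 called against 0.0666% of all probe sets, and 5 with an unadjusted p under 0.05 (7.46%, against 8.82%). RPL39 was 8.67 and 8.74 in callipyge lambs against 10.15 and 9.93 in normal lambs, a difference of -1.34 ± 0.26 (limma, adjusted p = 0.0799), the largest at that age. RPSA had the smallest p among those above 0, with 0.17 ± 0.15. At 20 days the order of RPL39 was not the same: 10.06 and 9.69 in callipyge lambs against 9.09 and 9.89 in normal lambs, which overlap. At 30 days they overlapped too, with 9.31 and 8.80 in callipyge lambs against 8.87 and 9.04 in normal lambs.

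At 20 days the median was -0.05, with 0 called against 0.0333% of all probe sets, and 1 with an unadjusted p under 0.05 (1.49%, against 6.15%). RPL32 had the smallest p, with 0.56 ± 0.22 (adjusted p = 0.748), and RPS24, a small subunit protein, the smallest among those below 0, with -0.27 ± 0.13. At 30 days the median was -0.04, with 0 called against 0.05% of all probe sets, and 2 with an unadjusted p under 0.05 (2.99%, against 7.6%). RPL3L differed by -0.62 ± 0.20 (adjusted p = 0.489) and RPS9 by 0.30 ± 0.16. The 30 day median was 0.03 without callipyge 30 day replicate 2 and -0.14 without callipyge 30 day replicate 1.

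The interaction of genotype and age was called in 0 of 67 genes and in 0% of all probe sets, where 570 probe sets (4.75%) and 2 of the genes (2.99%) had an unadjusted p under 0.05 in limma. Those were RPL39 (adjusted p = 0.952) and RPL32 (adjusted p = 0.992). A difference in the age course between callipyge and normal lambs was therefore not detected in any of these genes with 2 lambs in each group.

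**Figure D4:**
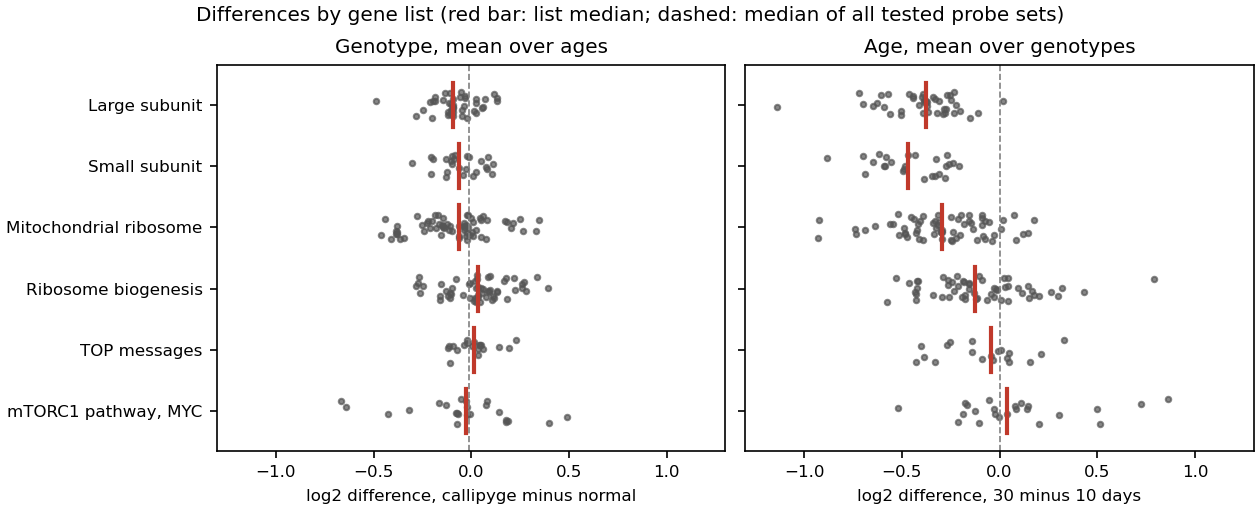
Differences in log2(signal + 16) for each gene (points) of 6 lists, for callipyge minus normal averaged over ages (left) and 30 minus 10 days averaged over genotypes (right). Red bars are list medians and the dashed line is the median of all tested probe sets. In the age panel the medians of the large (-0.37) and small subunit (-0.47) and of the mitochondrial ribosome (-0.30) lie left of the others.

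Proteins of the ribosome under other symbols and the genes around it were set beside these. FAU, which encodes the small subunit protein RPS30 fused to a ubiquitin-like part, was 11.07 and 10.77 in callipyge lambs and 10.31 and 10.80 in normal lambs at 30 days. At 10 days FAU was 11.18 and 11.22 in callipyge lambs and 11.44 and 11.51 in normal lambs, so that the ages did not overlap. It fell by 0.60 ± 0.12 (limma, adjusted p = 0.0282). RACK1, a scaffold on the small subunit, differed by -0.26 ± 0.08 (adjusted p = 0.111).

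The mitochondrial ribosome, which translates messages of the mitochondrial genome, had 65 tested genes. Of these 5 fell between 10 and 30 days (7.69%), none rose, 58 lay below 0 and the median was -0.30. MRPL3 fell by 0.93 ± 0.16, MRPS34 by 0.92 ± 0.16, MRPL22 by 0.69 ± 0.14, MRPL12 by 0.63 ± 0.15 and MRPL43 by 0.47 ± 0.11. For genotype 0 of the 65 were called and the median was -0.06. The mean level over the 65 genes ran from 7.31 to 7.42 in 30 day lambs, below every younger lamb. The lowest of those was 7.49 at 10 days and 7.50 at 20 days. The difference between the cytosolic and mitochondrial lists was not tested.

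Genes that build ribosomes or share their translational control were examined too. Of 56 tested ribosome biogenesis genes 0 were called between 10 and 30 days, 8 had an unadjusted p under 0.05, as 16.4% of all probe sets did, and the median was -0.12. EMG1, a methyltransferase of the small subunit's RNA, differed by -0.53 ± 0.14 (adjusted p = 0.0848), and MPHOSPH10, a processome component, by 0.79 ± 0.26 (adjusted p = 0.142). Of 19 other messages with an oligopyrimidine tract 1 fell, EEF1G, a subunit of an elongation factor, by 0.43 ± 0.08, and the median was -0.04. NAP1L1, a histone chaperone, was highest of these with 0.33 ± 0.13.

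Of 23 genes of the mTORC1 pathway and MYC, 0 were called for age and the median was 0.04. MAX, the partner of MYC, had the smallest p with 0.86 ± 0.23 (adjusted p = 0.0789). For genotype 0 of the 23 were called. MYC, a transcription factor that drives ribosome production, differed by -0.64 ± 0.15 between callipyge and normal lambs (limma, adjusted p = 0.0738). EIF4EBP1, a repressor of EIF4E, had the lowest difference with -0.67 ± 0.21, and EIF4E, the cap-binding protein, differed by 0.40 ± 0.13. The median of the 23 was -0.03, with 8 above 0 and 15 below. Of the 56 biogenesis genes and the 19 other tract messages 0 were called for genotype, with medians of 0.03 and 0.01.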

How the data were processed

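The authors deposited 1 linear intensity for each probe set and array, made with MAS5 in GCOS, per the submitters' processing notes. Versions and a scaling target are not given in the sources used here. Labelled RNA was made from 5 microg of total RNA per array.

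The 12 arrays had trimmed means (without the lowest and highest 2%) between 55.7 and 105.7, which differ 1.9-fold, so each array was scaled to 79.2. Of 24128 probe sets, 112 controls and those with a mean log2(signal + 16) below the median of 5.25 were left out, which left 12008. Names came from the platform's annotation, which can be old: 13292 probe sets had 1 symbol, 86 several and 10638 none. The number of arrays limits the precision.

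limma 3.58.1 in R 4.3.3 fitted a mean per group over all 12008 probe sets, with variances moderated along a brightness trend (degrees of freedom: 6 residual, 6.93 prior), and Benjamini-Hochberg adjustment ran over all of them. Figures used matplotlib 3.10.9 in python 3.11.15.

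Genes named were those called (up to 8 each way), the 4 with the smallest p each way for both main comparisons and the smallest p each way elsewhere, paralogs and genes with a special role, the 3 with the largest spread, and in other lists the called genes and the smallest p each way. Other called genes were named without values or after their values were seen, and EIF4EBP1, which was not called, was named outside this rule. The genes, lists and tests were chosen with earlier results of these data known. Labels call the lambs biological replicates. The labels do not say whether replicate numbers pair lambs across groups. No strong shared replicate difference was seen: of 15 correlations between groups of replicate 2 minus replicate 1, from -0.059 to 0.113, 1 was over 0.1. Alternatives covered the threshold, pseudocount, filter, scaling, variance model, probe set choice, a replicate block, each lamb left out, and both replicate 2 arrays of 30 days left out. Those arrays were picked because they stood apart in these data. Centring on other bright probe sets and the GAPDH covariate were chosen after seeing the data.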

Additional observations from a re-analysis of the deposited data

Results flagged for a closer look

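In 175 checks over the named genes and the subunit means, 11 values lay far from the others of their genotype or age. The limit used marks about 1 in 20 groups by chance where all values come from like lambs. Each genotype here pools all ages, between which these genes differed, and each age pools both genotypes, so that rate need not hold. Callipyge 30 day replicate 2 accounted for 4 of them, all low: RPL11 at 10.47, RPL5 at 11.42 and RPS29 at 10.72 among callipyge lambs, and RPLP0 at 12.31 among 30 day lambs. Normal 30 day replicate 2 accounted for 3, also low: RPL7L1 at 5.01 among 30 day lambs, and RPS14 at 11.6 and RPL31 at 9.85 among normal lambs. RPS29 was low at 11.05 in normal 30 day replicate 1 and RPS19BP1 high at 8.1 in normal 10 day replicate 1, both among normal lambs. RPS29, RPL31 and RPS19BP1 were named for their spread between replicates, so such values were to be found there. RPL22 was low at 10.77 in callipyge 10 day replicate 2 among 10 day lambs, and RPL26L1 was high at 8.04 in callipyge 20 day replicate 2 among callipyge lambs.

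In 4 of 33 genes examined, both callipyge lambs lay above both normal lambs at an age and below both at another. Over all 67 genes this held for 6, and over all tested probe sets for 1435 of 12008 (12%). RPL32 differed between callipyge and normal lambs by -0.49 at 10 days and by 0.56 at 20 days. RPS24 differed by 0.1 at 10 days, by -0.27 at 20 days and by -0.13 at 30 days. RPS26 differed by -0.35 at 20 days and by 0.28 at 30 days, and RPS9 by -0.11 at 10 days and by 0.3 at 30 days. The differences between these pairs of ages were not tested singly, and limma's interaction over all 3 ages passed for none of these genes.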

How the results depend on the processing

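The precision is limited by 2 lambs per group, and by cattle probes that may read several copies of a ribosomal protein gene. For genotype no gene was called under any alternative except 1 each with the threshold at 0.10, RPL3L over ages and RPL39 at 10 days. At that threshold 192 of all 12008 probe sets were called over ages and 27 at 10 days. For 30 minus 10 days the number called was 24, where 220 of all probe sets were called. It was 8 without the filter (87 of all), 8 with quantile normalization (166), 2 with median centring (81), 1 without scaling (228), 3 with least squares without shared variance (15), 0 without both replicate 2 arrays of 30 days (1), and 2 to 28 with a lamb left out. Every gene called in those settings without the filter, with other scaling or with least squares was among the 24. Between 20 and 30 days 1 was called with least squares, where 2 of all probe sets were. With a replicate block the number for 30 minus 10 days was 25 (235 of all), of which 23 were shared. It was 0 in every other comparison. Of all probe sets, 96 were then called for genotype over ages and 10, 5 and 9 at 10, 20 and 30 days. For the interaction and the other age comparisons 0 of all were called.

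Medians moved mainly with scaling. Over ages the genotype median was -0.18 with median centring and -0.31 without scaling. At 10 days it was -0.014 with quantile normalization, -0.17 with median centring and -0.34 without scaling, and at 20 days -0.23 with median centring, -0.37 without scaling and 0.0082 centred on other bright probe sets. At 30 days it was -0.14 without scaling, 0.034 without both replicate 2 arrays of 30 days, and -0.14 to 0.032 with a lamb left out. For 30 minus 10 days it was -0.22 with quantile normalization, -0.25 with median centring, -0.086 without scaling and -0.28 centred on other bright probe sets. For 20 minus 10 days it was 0.025 with median centring and 0.073 without scaling, and for 30 minus 20 days -0.19 with quantile normalization, -0.17 without scaling and -0.21 centred on other bright probe sets. The cause was not tested.

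Single genes reversed mainly without scaling. For genotype these were RPL27 (-0.091), RPS9 (-0.11), RPS6 (-0.11), RPSA (-0.14), RPL26L1 (-0.19), RPS27L (-0.14) and RPL5 (-0.20), at 10 days RPSA (-0.0799), and for 30 minus 10 days RPL3 (0.055), RPL3L (0.092), RPL7 (0.0785), RPL36A (0.15), RPS27L (0.093) and RPS4Y1 (0.022). With the mean of all probe sets RPL26 (0.10) and RPS27L (-0.087) reversed for genotype. Of 698 values of named genes for 30 minus 10 days, 575 kept their side of the threshold, with the same direction or a shift across 0 smaller than the standard error. Another 112 kept the direction but lost the call, 5 kept it and gained the call, and 6 reversed. A shift across 0 smaller than the standard error, in genes not called, was not counted as a reversal for age or genotype. RPL26L1, above 0 in the main fit for 30 minus 10 days, lay below 0 with quantile normalization.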
